A study of Mus musculus with 6 samples.

Results

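The genes described here are the 3 lipins and 7 acyltransferases of triglyceride synthesis, namely Lpin1, Lpin2, Lpin3, Dgat1, Dgat2, Gpam, Gpat3, Agpat2, Agpat3 and Mogat1. They were chosen by gene name, which gave 10 of the 55039 genes in the table, and all 10 were among the 17296 genes with enough reads to be tested. The study measured RNA of eWAT, the white fat depot along the epididymis, in mice with cancer-associated cachexia, the wasting of fat and muscle that a tumor brings about. Male C57BL/6 mice received Lewis lung carcinoma (LLC) cells in PBS under the skin (CAC, 3 libraries) or PBS without cells (CONT, 3 libraries) at 6 to 7 weeks of age, and tissue was taken at 28 days. The labels name no engineered allele in either group, and a single tumor line stood for cachexia. Each library came from 1 mouse, so the p-values below measure the spread between 3 mice and 3 mice.

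Triglyceride is built on glycerol-3-phosphate in the membrane of the endoplasmic reticulum and on the outer membrane of mitochondria. A glycerol-3-phosphate acyltransferase (GPAT) adds a fatty acid to give lysophosphatidate, an acylglycerol-phosphate acyltransferase (AGPAT) adds another to give phosphatidate, a lipin removes the phosphate to give diacylglycerol, and a diacylglycerol acyltransferase (DGAT) adds the last fatty acid. Monoacylglycerol acyltransferases (MGAT) reach diacylglycerol by another route, from monoacylglycerol. White adipocytes run this pathway to store fatty acids, and also to re-esterify part of what lipolysis releases.

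The libraries held 15713794 to 20638492 counted reads in CONT and 22829269 to 25926425 in CAC, so that a value of 1 CPM, a count scaled to the size of its library, stood for 11.2 to 26.5 reads. CONT replicate 1 stood apart, with 30.2% of its reads from the mitochondrial genome against 3.89% to 5.04% in the others. All 10 adipocyte markers were tested, and their summed level was 24482 to 56419 CPM in CONT and 36755 to 50276 CPM in CAC. The marker sums of fibroblasts and of B and plasma cells were lower in every CAC library than in every CONT library. They were 2155 to 2572 CPM in CONT against 1358 to 2086 CPM in CAC for fibroblasts and 34.4 to 91.5 against 7.82 to 19.0 CPM for B and plasma cells. Within the fibroblast list Dcn, decorin, was higher in every CAC library, at 780 to 973 CPM in CONT and 1099 to 1498 CPM in CAC, and Pdgfra overlapped. Epididymis markers lay at 2.63 to 9523 CPM in CONT and 0.0411 to 2.70 CPM in CAC, overlapping at CONT replicate 2 and CAC replicate 2, and Adam7, a gene of the epididymal epithelium, was at 1582 CPM in CONT replicate 3. Macrophage markers, at 661 to 1827 CPM in CONT and 845 to 1315 CPM in CAC, endothelial markers, at 1039 to 2254 and 1335 to 1542 CPM, and muscle markers, at 11.0 to 53.2 and 13.4 to 48.8 CPM, overlapped between the groups, as did those of T cells (9.99 to 14.7 and 6.49 to 10.5 CPM), mesothelium (103 to 176 and 54.3 to 186 CPM) and brown and beige adipocytes (16.2 to 31.6 and 16.4 to 144 CPM, with Ucp1 at 0 to 6 reads). The part of these lists in the results below was not tested, and in whole tissue fewer cells of a type and less RNA per cell cannot be told apart.

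Lpin1 was the gene of this set that separated the groups most clearly. Together with Gpam, Lpin3 and Dgat1 it was higher in every CAC library than in every CONT library, while Lpin2, Dgat2, Gpat3, Agpat2, Agpat3 and Mogat1 overlapped. Thus 4 of 10 genes did not overlap, all with CAC higher, beside 11.8% of all tested genes in that direction and 22.5% in either. With edgeR's quasi-likelihood test, 0 of the 10 and 0 of all 17296 genes (0%) had an adjusted p under 0.05, the smallest adjusted p of any gene being 0.127. An unadjusted p under 0.05 was reached by the same 4 genes, beside 6.31% of all genes on the higher side and 13.3% in all. With RLE or upper-quartile normalization or a replicate block it was 3 of the 10, without Dgat1. Without CONT replicate 1, 4 of the 10 reached it, Lpin2 in place of Lpin3, beside 15.6% of all genes. The median log2 fold change of CAC over CONT was 0.25 over the 10 genes, with 6 higher and 4 lower, and -0.06 over all tested genes, 45.9% of which were higher. DESeq2 called 1 of the 10, Lpin1, where it called 5.62% of all genes, and counted 5 of the 10 at an unadjusted p under 0.05, beside 9.73% of the 33212 genes to which it gave a p, many of low count that edgeR did not test. Limma's voom with sample quality weights also called Lpin1 alone of the 10, where it called 1.43% of all genes.

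**Figure D1:**
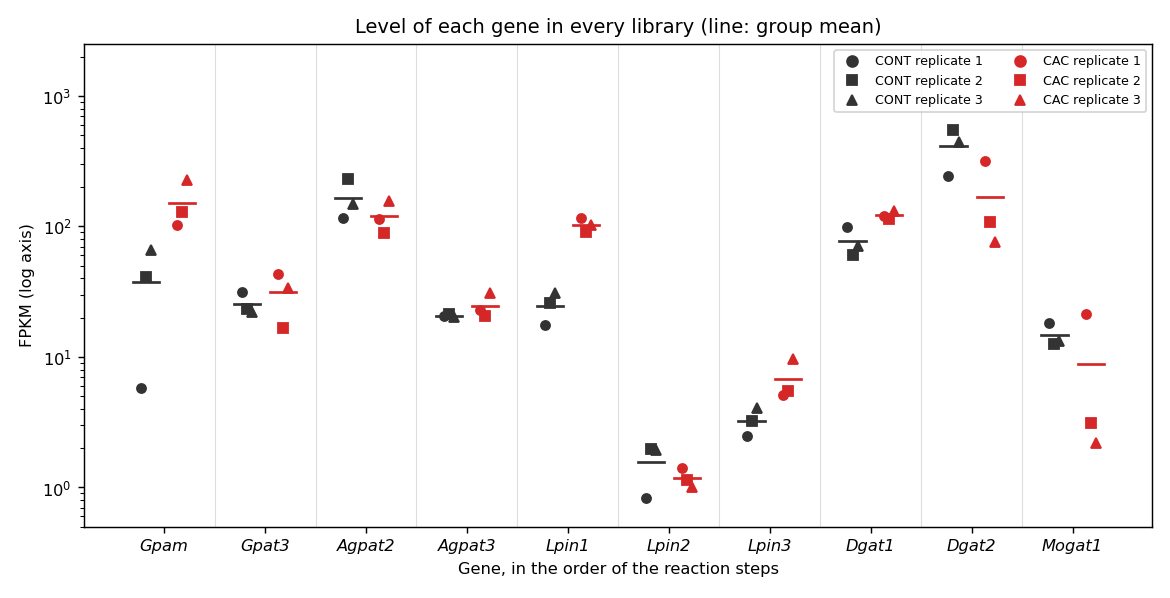
FPKM (fragments scaled by gene length and library size, log axis) of the 10 genes in each of the 6 libraries, in the order of the reaction steps, with CONT in black and CAC in red. Points are libraries and lines are group means. The 3 CAC libraries lie above the 3 CONT libraries for Gpam, Lpin1, Lpin3 and Dgat1, and CAC replicate 1 lies apart from the other CAC libraries for Dgat2 and Mogat1.

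Per unit of gene length, the levels ran over more than 2 orders of magnitude. In CONT, Dgat2 had the highest level at 412 ± 154 FPKM (SD, n = 3), followed by Agpat2 at 166 ± 59.4 and Dgat1 at 77.0 ± 20.0 FPKM, and these 3 did not overlap each other. Next came Gpam, Gpat3, Lpin1 and Agpat3, from 37.7 down to 20.7 FPKM on average, where each gene overlapped its neighbour. Mogat1, Lpin3 and Lpin2 closed the order at 14.7 ± 3.09, 3.24 ± 0.785 and 1.58 ± 0.645 FPKM without overlap. In CAC, Dgat2, Gpam, Dgat1, Agpat2 and Lpin1 had means of 167, 152, 122, 120 and 103 FPKM, and each overlapped the next. Gpam was thus in position 4 of 10 in CONT and 2 in CAC, and Lpin1 in positions 6 and 5, with a gap between Lpin1 and Gpat3 (31.3 ± 13.5 FPKM) in CAC that CONT did not have. By the means, Lpin3 and Lpin2 held the last positions in both groups, but in CAC replicates 2 and 3 Mogat1 (3.13 and 2.19 FPKM) was below Lpin3 (5.49 and 9.58 FPKM).

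The GPAT step is represented by Gpam and Gpat3. Gpam (ENSMUSG00000024978, GRCm38 chr19:55069734-55099451, minus strand), which encodes the mitochondrial GPAT1, was at 27.4, 196 and 317 CPM in the CONT libraries and at 481, 604 and 1058 CPM in the CAC libraries. The lowest CAC library was above the highest CONT library, and CONT replicate 1 was far below the other controls, with 307 reads against 4464 and 7022. The log2 fold change was 1.99 with a standard error of 0.82 (edgeR unadjusted p = 0.0485, adjusted p = 0.375). Without CONT replicate 1 the log2 fold change was 1.49 with a smaller unadjusted edgeR p of 0.0240, and over all single libraries left out it ran from 1.49 to 2.69, with an unadjusted p under 0.05 only without CONT replicate 1 or without CONT replicate 3.

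Gpat3, the GPAT of the endoplasmic reticulum that is abundant in adipocytes, lay at 96.2 to 136 CPM in CONT and 72.2 to 184 CPM in CAC. Its groups overlapped on both sides, with a log2 fold change of 0.27 and a standard error of 0.36 (edgeR adjusted p = 0.780). Without CAC replicate 1 the log2 fold change was near 0, at 0.0062 by edgeR and -0.0087 by DESeq2, and without CAC replicate 2 it was 0.58 by edgeR. Summed over Gpam, Gpat2, Gpat3 and Gpat4, GPAT transcripts were at 89.4 ± 20.6 FPKM in CONT and 217 ± 66.1 FPKM in CAC (SD, n = 3). The Gpam part of that sum was 8.30%, 46.5% and 60.0% in CONT and 54.2%, 76.1% and 77.0% in CAC. The ratio of Gpam to Gpat3 was 0.184, 1.76 and 3.02 in CONT and 2.39, 7.65 and 6.64 in CAC, so that CAC replicate 1 lay below the highest control. An exact permutation test of the log2 ratio, two-sided, gave p = 0.2, where 3 against 3 libraries cannot go below 0.1. The difference in the log2 ratio was 2.32, and 1.10 without CONT replicate 1.

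The AGPAT step showed the least difference. Agpat2 encodes the main AGPAT of adipose tissue, loss of which causes generalized lipodystrophy in humans, and Agpat3 encodes a related enzyme of wide expression. Agpat2 lay at 306 to 619 CPM in CONT and 233 to 409 CPM in CAC (log2 fold change -0.50, standard error 0.36, edgeR adjusted p = 0.562), and Agpat3 at 196 to 208 and 196 to 293 CPM (log2 fold change 0.24, standard error 0.22, edgeR adjusted p = 0.666). Both overlapped between the groups. Agpat2 was at -0.17 without CONT replicate 2 and -0.73 without CAC replicate 3, and Agpat3 at 0.06 without CAC replicate 3. The ratio of Agpat2 to Agpat3 in FPKM was nevertheless lower in every CAC library, at 4.93, 4.34 and 5.10, than in the CONT libraries, at 5.67, 10.9 and 7.41. The difference in the log2 ratio was -0.69, with the smallest p that the exact permutation test allows, 0.1, and was -0.44 without CONT replicate 2. Agpat2 shares 64 bases with Egfl7 on the opposite strand, which had 20463 reads in all against 50116 for Agpat2. It also shares 11361 bases with Gm20532 on the opposite strand, which had 0 reads. The strand setting of the counting is not given in the sources used here, so reads from shared bases cannot be assigned with certainty.

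At the lipin step, Lpin1 and Lpin3 were higher in every CAC library and Lpin2 overlapped. Lipins are phosphatidate phosphatases that move from the cytosol to membranes, and in the nucleus lipin 1 also acts as a coregulator of transcription with PGC-1α and PPARα. Lipin 1 is the main lipin of adipose tissue and muscle, and mice that lack it are lipodystrophic. Lpin1 (ENSMUSG00000020593, GRCm38 chr12:16535669-16610966, minus strand) was at 208, 315 and 371 CPM in CONT and at 1351, 1082 and 1214 CPM in CAC, from 2338 to 8203 reads per CONT library and 26813 to 32897 per CAC library. The means were 298 ± 82.5 and 1216 ± 134 CPM (SD, n = 3), and the lowest CAC library was above the highest CONT library by more than the whole range of either group. The log2 fold change was 2.03 with a standard error of 0.31, a 4.08-fold higher level in CAC (edgeR unadjusted p = 0.00039, adjusted p = 0.179), which placed Lpin1 at rank 35 of 17296 genes by p. DESeq2 gave 2.06 with an adjusted p of 1.36e-10 and voom gave 1.81 with an adjusted p of 0.0305. Leaving out any single library kept the edgeR log2 fold change between 1.84 and 2.23 and the unadjusted p between 0.000498 and 0.00252. Without CONT replicate 1, the library with the high mitochondrial share, it was 1.84. Lpin1 overlaps no other gene of the table. Lpin2 shares 67258 bases with Gm26561 on the same strand (8 reads against 2821), and Lpin3 7359 with Gm16751 on the opposite strand (28 against 3203). Gpat3 shares 1455 bases with 4930458D05Rik on the opposite strand (902 against 16104) and 2350 with Gm42987 on the same strand (92). Agpat3 shares 1987 bases with Gm47992 (25 against 29240) and 16 with Gm40709 (92), both on the opposite strand.

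Lpin3, a lipin known from intestine and liver, was at 11.2, 14.8 and 18.6 CPM in CONT and 22.9, 25.0 and 43.4 CPM in CAC. The groups did not overlap, although the gap between them was small and CAC replicate 3 stood above the other CAC libraries. The log2 fold change was 1.03 with a standard error of 0.33 (edgeR unadjusted p = 0.0182, adjusted p = 0.296). It was 0.69 without CAC replicate 3 (edgeR adjusted p = 0.589) and 0.87 without CONT replicate 1 (edgeR adjusted p = 0.330), both with an unadjusted p just above 0.05, and the unadjusted p stayed under 0.05 with each of the other 4 libraries left out.

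Lpin2, best known for its role in liver and in macrophages, was at 12.6, 30.1 and 29.5 CPM in CONT and 20.9, 17.3 and 15.3 CPM in CAC. CONT replicate 1 was below all CAC libraries and the other controls were above them. With all libraries the log2 fold change was -0.44 with a standard error of 0.36 (edgeR adjusted p = 0.619). Without CONT replicate 1 it was -0.73 (edgeR unadjusted p = 0.0112, adjusted p = 0.237). DESeq2 without that library, a fit chosen after seeing the data, gave -0.69 with an adjusted p of 0.0210. A call thus needed both the left-out library and the other test.

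On the scale of FPKM, the lipin transcripts summed to 29.6 ± 8.11 in CONT and 111 ± 12.2 in CAC (SD, n = 3). The Lpin1 part of it was 84.1%, 83.4% and 83.8% in CONT and 94.6%, 93.2% and 90.6% in CAC. The control shares lay within 1 percentage point of each other, CONT replicate 1 included, and every CAC share was above them. The difference was 9.05 percentage points (exact permutation test, two-sided, p = 0.1, the smallest it can give). The Lpin3 share was 11.0% ± 0.795 in CONT and 6.10% ± 2.18 in CAC, and the Lpin2 share 5.19% ± 1.14 and 1.08% ± 0.154.

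**Figure D2:**
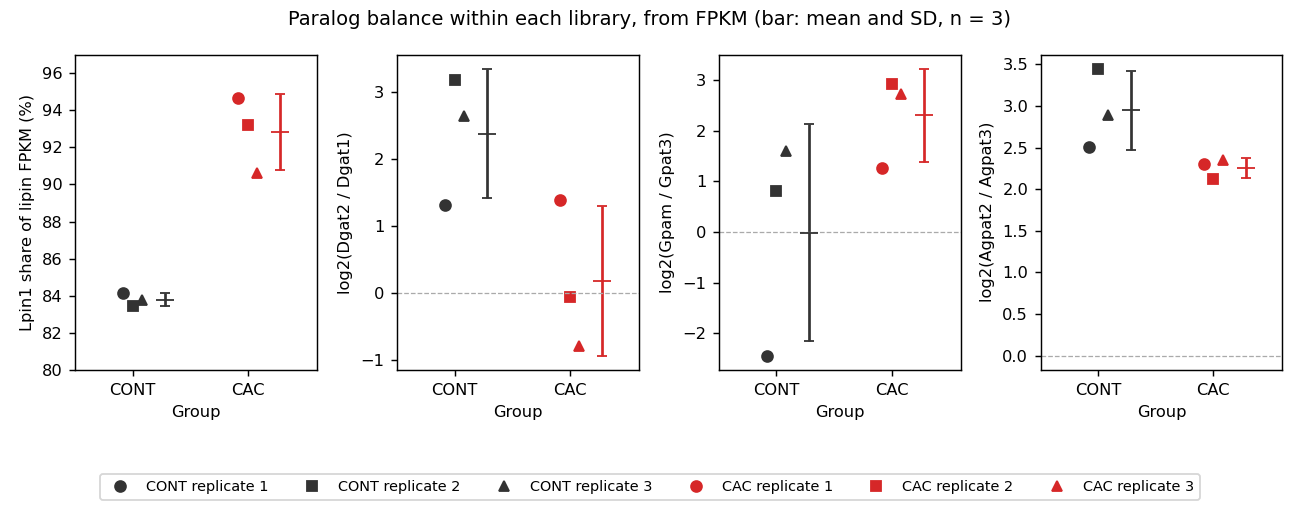
Balance between paralogs within each library, from FPKM, as the Lpin1 share of the 3 lipins in percent (axis not from 0) and as log2 ratios of Dgat2 to Dgat1, Gpam to Gpat3 and Agpat2 to Agpat3. Points are libraries and the crosses with bars are the mean and SD of 3 libraries. The lipin share and the Agpat2 to Agpat3 ratio separate the groups, while CAC replicate 1 lies among the controls for the other ratios.

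The bases around the start sites of the 3 lipins and of Gpam, the acyltransferase gene that was higher in every CAC library and has an entry in the table of start sites, are given to let their sequences be compared. Each window runs from 250 bases before to 50 after a RefSeq start site on GRCm38.p6, 5′ to 3′ on the strand of the gene, at the start site nearest to the 5′ end of the gene in the table. Capitals mark matches to the motifs searched. The windows are chr12:16610917-16611216 (minus strand) for Lpin1, chr2:160880420-160880719 (plus) for Lpin3, chr17:71183282-71183581 (plus) for Lpin2 and chr19:55099428-55099727 (minus) for Gpam.
Lpin1: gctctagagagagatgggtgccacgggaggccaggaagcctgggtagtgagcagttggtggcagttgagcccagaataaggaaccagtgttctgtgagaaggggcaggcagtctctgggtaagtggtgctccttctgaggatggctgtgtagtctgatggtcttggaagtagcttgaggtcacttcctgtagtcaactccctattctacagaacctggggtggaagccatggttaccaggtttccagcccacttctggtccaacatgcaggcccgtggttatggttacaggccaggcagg
Lpin3: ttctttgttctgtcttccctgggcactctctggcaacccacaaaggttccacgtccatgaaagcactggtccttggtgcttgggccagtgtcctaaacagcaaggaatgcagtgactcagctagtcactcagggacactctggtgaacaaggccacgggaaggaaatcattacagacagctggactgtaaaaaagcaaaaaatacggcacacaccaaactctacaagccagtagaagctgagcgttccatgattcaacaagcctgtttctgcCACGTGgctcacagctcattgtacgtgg
Lpin2: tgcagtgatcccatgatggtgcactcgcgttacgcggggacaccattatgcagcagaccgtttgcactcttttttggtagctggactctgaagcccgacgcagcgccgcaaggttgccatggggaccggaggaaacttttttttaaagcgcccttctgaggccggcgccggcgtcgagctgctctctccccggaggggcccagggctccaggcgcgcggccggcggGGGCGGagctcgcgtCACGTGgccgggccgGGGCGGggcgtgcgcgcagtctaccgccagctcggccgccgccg
Gpam: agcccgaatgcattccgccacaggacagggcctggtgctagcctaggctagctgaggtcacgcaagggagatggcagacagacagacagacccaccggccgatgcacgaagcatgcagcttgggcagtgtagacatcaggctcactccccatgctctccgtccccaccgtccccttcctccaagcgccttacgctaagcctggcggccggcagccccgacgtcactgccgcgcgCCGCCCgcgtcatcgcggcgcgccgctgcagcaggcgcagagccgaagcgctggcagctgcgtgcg
The table of start sites held 12 entries for 8 of the 10 genes, without Dgat1 and Dgat2. Searched on both strands were the E-box CACGTG, present in 7.15% of 32851 windows of this length, the NF-Y box CCAAT (37.4%), the GC box GGGCGG (35.7%), the TATA box TATAAA (13.6%), the glucocorticoid palindrome of GNACA and TGTNC spaced by NNN (0.475%), the PPAR repeat of AGGTCA spaced by N (0.0396%), the cAMP response element TGACGTCA (1.79%), the SREBP element TCACNCCAC (1.24%) and the C/EBP palindrome TTGCGCAA (0.183%). None of these motifs has letters in common with another at the matches shown. The Lpin1 window held none of them. The Lpin3 window held an E-box that begins 23 bases after the start site, the Lpin2 window held an E-box at -9 between GC boxes at -24 and 7, and the Gpam window held a GC box on the other strand at -16. GC content was 55.3% for Lpin1, 50% for Lpin3, 68.7% for Lpin2 and 68% for Gpam, beside a median of 52.7% over all windows. Of the 6 protein-coding Lpin1 transcripts in GENCODE M21, 1 starts within 50 bases of the start site shown, and of the 4 of Gpam, 1 does. The other 3 Gpam transcripts start within 50 bases of a further RefSeq start site, whose window held an NF-Y box at -74 and no GC box. The further Lpin3 window held a GC box at -111 and no E-box, and neither of the further Lpin2 windows held an E-box. Gene counts do not tell transcripts apart.

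The last step is represented by Dgat1 and Dgat2, with Mogat1 on the other route to diacylglycerol. DGAT1 and DGAT2 are unrelated proteins with the same activity, and DGAT2 is tied more closely to newly made fatty acids, DGAT1 to fatty acids that are taken up or recycled. Dgat1 (GRCm38 chr15:76502015-76511953, minus strand) was at 374, 233 and 270 CPM in CONT and 447, 426 and 492 CPM in CAC. No CAC library was below a CONT library, and CONT replicate 1 was the highest of the controls. The log2 fold change was 0.64 with a standard error of 0.26 (edgeR unadjusted p = 0.0433, adjusted p = 0.366). Without CONT replicate 1 it was 0.87 (edgeR adjusted p = 0.225), the only such fit with an unadjusted p under 0.05, and leaving out any of the other libraries gave 0.50 to 0.70 with an unadjusted p above 0.05.

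Dgat2 (GRCm38 chr7:99153658-99182719, minus strand) was at 932, 2124 and 1698 CPM in CONT and at 1181, 415 and 286 CPM in CAC. CAC replicates 2 and 3 were below all controls, while CAC replicate 1 was above CONT replicate 1. The log2 fold change was -1.34 with a standard error of 0.61 (edgeR unadjusted p = 0.0681, adjusted p = 0.409). Without CAC replicate 1 it was -2.11 (edgeR adjusted p = 0.241). DESeq2 without that library, a fit chosen after seeing the data, gave -2.13 with an adjusted p of 6.49e-05.

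Mogat1, which encodes an MGAT of low abundance in fat, had the same library apart. Its levels were 35.0, 24.4 and 25.9 CPM in CONT and 40.3, 6.01 and 4.19 CPM in CAC, so that CAC replicate 1 was above every control and the other CAC libraries were below every control. The log2 fold change was -0.75 with a standard error of 0.84 (edgeR adjusted p = 0.724), and -2.44 without CAC replicate 1 (edgeR adjusted p = 0.169). DESeq2 without that library, a fit chosen after seeing the data, gave -2.45 with an adjusted p of 9.8e-09. The edgeR value was -0.34 without CAC replicate 2 and -0.28 without CAC replicate 3. Mogat1 shares 1168 bases with BC035947 on the opposite strand, which had 1131 reads against 2762, and its reads are uncertain to that extent. Mogat2, the other MGAT tested, was at 1.61, 3.77 and 3.16 CPM in CONT and 1.40, 0.242 and 0.227 CPM in CAC (log2 fold change -2.19, edgeR unadjusted p = 0.0376, adjusted p = 0.351). Without CAC replicate 1 it was -3.51 (edgeR adjusted p = 0.224), and with any of the other libraries left out it was -2.45 to -1.79 with an unadjusted p above 0.05. Lep, the adipocyte hormone leptin, divided the CAC libraries in the same way, with 12457 reads in CAC replicate 1 against 99 and 11 in replicates 2 and 3, beside 7820 to 9335 in the controls.

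The ratio of Dgat2 to Dgat1 in FPKM was 2.47, 9.05 and 6.24 in CONT and 2.62, 0.964 and 0.576 in CAC. Dgat2 therefore exceeded Dgat1 in all 3 controls and in CAC replicate 1, and was below it in CAC replicates 2 and 3. The mean log2 ratio was 2.37 ± 0.964 in CONT and 0.18 ± 1.11 in CAC (exact permutation test, two-sided, p = 0.2). The sum of both was 489 ± 134 FPKM in CONT and 288 ± 128 FPKM in CAC (SD, n = 3).

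**Figure D3:**
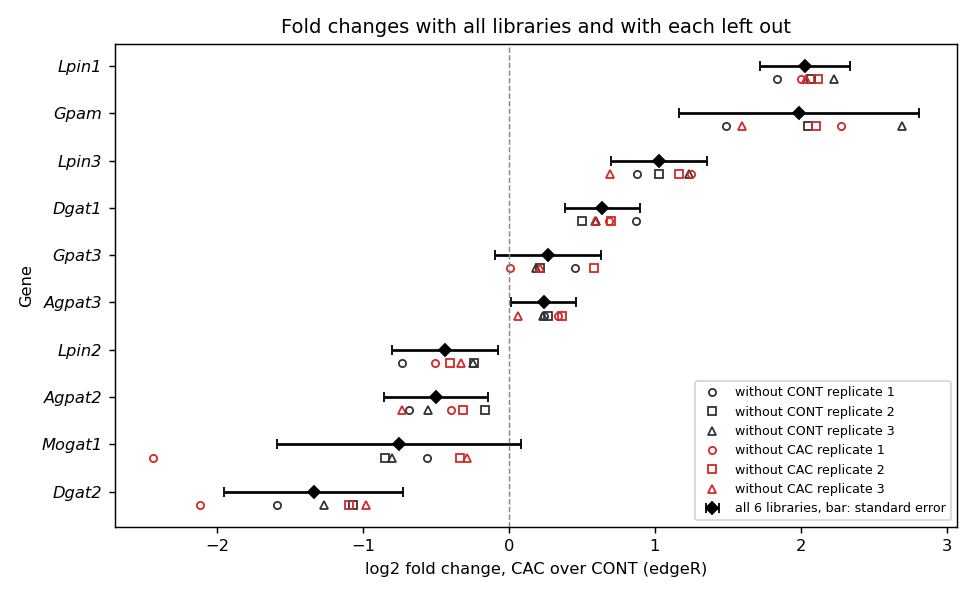
Log2 fold change of CAC over CONT from edgeR for each of the 10 genes, with all 6 libraries (diamonds, bars are the standard error) and with each library left out in turn (open symbols). Lpin1 stays between 1.84 and 2.23, whereas Mogat1 moves from -0.75 to -2.44 and Dgat2 from -1.34 to -2.11 without CAC replicate 1.

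Genes with the pattern most like Lpin1 were sought by the root mean square difference of log2 CPM over the 6 libraries, each gene centred on its own mean, among 17295 genes. The nearest were Gpnmb, a glycoprotein of lysosome-rich macrophages, at 0.177, Il6ra, the receptor of interleukin 6, at 0.190, and Map3k6, a stress-activated kinase, at 0.206, where the median over all genes was 1.17. Il6ra was at 21.2, 42.8 and 56.1 CPM in CONT and 172, 132 and 132 CPM in CAC. Of the other 9 genes of the set, Lpin3 was nearest to Lpin1, at 0.619 and rank 375. Nearest to Gpam were Rab44 at 0.260, Chil1 at 0.384 and Gm16867 at 0.451, all below 8 CPM in every library, where the median over all genes was 1.75. These are descriptions over 6 libraries of 2 groups.

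Around the 10 genes, 58 further genes of glycerolipid metabolism were examined in 5 lists, of which 54 were tested. By edgeR 0 had an adjusted p under 0.05 (0% of all genes), and 6 were higher and 2 lower at an unadjusted p under 0.05, beside 6.31% and 6.95% of all tested genes. Their median log2 fold change was 0.07. DESeq2 called 4 of them, Slc27a1, Fitm2, Plpp1 and Cept1, and voom called 3, Slc27a1, Fitm2 and Crls1.

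Among the other acyltransferases and phosphatases, 1 of 10 tested genes was higher and 1 lower at an unadjusted p under 0.05. Plpp1, a phosphatase of the cell surface that acts on phosphatidate and lysophosphatidate, was at 18.0, 20.9 and 29.0 CPM in CONT and 57.4, 35.7 and 44.0 CPM in CAC (log2 fold change 1.01, standard error 0.27, edgeR adjusted p = 0.266), without overlap. The lower gene was Mogat2. The remaining AGPAT and GPAT genes overlapped between the groups, with log2 fold changes of 0.35 for Gpat4, 0.27 for Agpat1, 0.10 for Agpat5, -0.20 for Agpat4 and -0.20 for Lclat1, and so did Plpp2 at -0.32 and Plpp3 at 0.05. These small values moved with single libraries. Gpat4 ran from 0.15 without CAC replicate 1 to 0.56 without CAC replicate 2. Lclat1 was at 0.14 without CONT replicate 3 and -0.48 without CONT replicate 1 (edgeR unadjusted p = 0.0460, adjusted p = 0.312). Agpat5 moved to -0.02 and Plpp2 to -0.10 without CAC replicate 3, Agpat4 to -0.04 without CAC replicate 2 and Plpp3 to -0.19 without CAC replicate 1. Awat2 was below 2 CPM in all libraries and lower in every CAC library, with a log2 fold change of -0.88 (edgeR adjusted p = 0.516), and -0.40 without CONT replicate 1. Gpat2, Dgat2l6 and Awat1 had too few reads to be tested.

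Glycerol-3-phosphate comes from glucose through glycerol-3-phosphate dehydrogenase, from glyceroneogenesis or from glycerol kinase, and 0 of these 6 genes had an unadjusted p under 0.05. Gpd1, the cytosolic dehydrogenase, was at 588, 765 and 676 CPM in CONT and 580, 473 and 390 CPM in CAC, with every CAC library below the controls (log2 fold change -0.49, standard error 0.26, edgeR adjusted p = 0.452). Pck1, the key enzyme of glyceroneogenesis, had a mean of 1259 ± 434 CPM in CONT and 2891 ± 1601 CPM in CAC with overlap (log2 fold change 1.20, standard error 0.51, edgeR adjusted p = 0.379), and 0.72 without CAC replicate 1, its highest library. Gk, glycerol kinase, had a log2 fold change of -1.68, Aqp7, the glycerol channel, of -0.92, Gpd2 of 0.56 and Gpd1l of 0.26, all with overlap. Gk was at 6.96, 49.9 and 60.5 CPM in CONT and 7.39 to 17.1 CPM in CAC. Its log2 fold change ran from -2.16 without CONT replicate 1 (edgeR adjusted p = 0.223) to -1.21 without CONT replicate 3. Gpd2 was at 0.34 without CONT replicate 1 and Gpd1l at 0.16 without CAC replicate 2. The Aqp7 value was -0.29 without CONT replicate 1 and -1.83 without CAC replicate 1 (edgeR adjusted p = 0.360).

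Acyl-CoA synthetases activate the fatty acids that the acyltransferases use. Slc27a1 (FATP1), which takes up and activates fatty acids, was at 271, 471 and 777 CPM in CONT and 2081, 3017 and 3443 CPM in CAC. Every CAC library was above every control (log2 fold change 2.49, standard error 0.48, edgeR adjusted p = 0.215), and DESeq2 gave an adjusted p of 2.54e-06. Acsl1, the main synthetase of adipocytes, did not overlap either, at 494 to 1876 and 2136 to 3792 CPM (log2 fold change 1.22, edgeR adjusted p = 0.393). Acsl4, Slc27a2 and Slc27a4 overlapped, with log2 fold changes of 0.69, -2.39 and -0.27, and Slc27a2 was at -1.26 without CONT replicate 2, its highest library. Acsl4 ran from 0.40 without CAC replicate 3 to 0.97 without CAC replicate 1, and Slc27a4 was at -0.44 without CONT replicate 2.

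Among genes that act on lipins or on droplet formation, Fitm2, a protein of the endoplasmic reticulum that is needed to bud lipid droplets, was at 128, 145 and 163 CPM in CONT and 454, 322 and 436 CPM in CAC. The groups were apart by about the level of a control library (log2 fold change 1.47, standard error 0.24, edgeR adjusted p = 0.192). Ppara, with which lipin 1 acts in the nucleus, was at 1.43 to 9.77 CPM in CONT and 8.62 to 38.4 CPM in CAC (log2 fold change 1.90, edgeR adjusted p = 0.379). The phosphatase that dephosphorylates lipins, Ctdnep1, had a log2 fold change of -0.44, the droplet gene Bscl2, seipin, of 0.50 and Srebf1, a driver of lipogenic genes, of -0.53, all with overlap. Without CONT replicate 1, Ctdnep1 was at 0.04 and Bscl2 at 0.88. DESeq2 without that library, a fit chosen after seeing the data, gave Bscl2 an adjusted p of 0.000839. Srebf1 was at -0.27 with CONT replicate 3 left out and -0.80 with CAC replicate 1 left out.

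Phosphatidate and diacylglycerol also feed phospholipids. In this branch of 19 genes, 3 were higher and 1 lower at an unadjusted p under 0.05. Cept1, which makes phosphatidylcholine and phosphatidylethanolamine from diacylglycerol, was at 44.8 to 53.4 CPM in CONT and 70.6 to 83.6 CPM in CAC (log2 fold change 0.64, standard error 0.17, edgeR adjusted p = 0.261). Cds2, a CDP-diacylglycerol synthase, had a log2 fold change of 0.79 without overlap, its paralog Cds1 of -1.33 with overlap, and Crls1, cardiolipin synthase, of 1.27 with overlap. Cdipt, which makes phosphatidylinositol, had -0.72 with overlap, and -0.35 without CONT replicate 1. The edgeR adjusted p was 0.330 for Cds2, 0.368 for Cds1 and 0.304 for Crls1. With 1 library left out, the unadjusted p of Cds1 stayed under 0.05 only without CONT replicate 1, that of Cds2 only without CONT replicate 1, CONT replicate 3 or CAC replicate 1, and that of Crls1 only without CONT replicate 1 or CAC replicate 1.

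**Figure D4:**
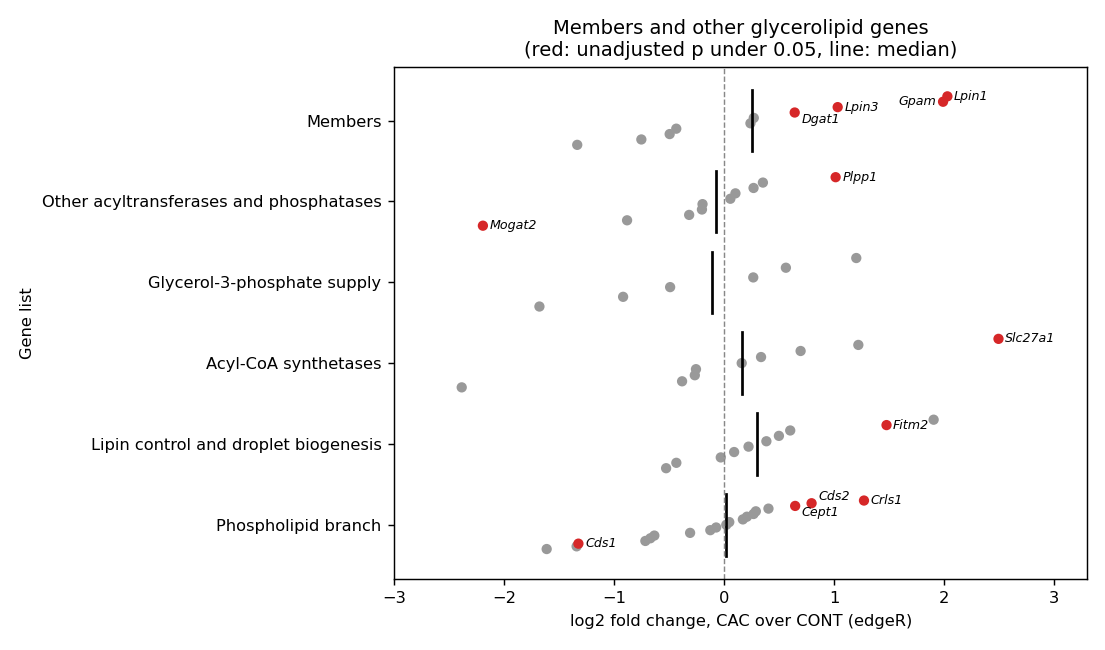
Log2 fold change of CAC over CONT from edgeR for the 10 genes (top row, members) and for the tested genes of the 5 other lists, with 1 point per gene, red where the unadjusted p was under 0.05, and the median of each list as a black line. The list medians lie near 0 while Slc27a1, Gpam, Lpin1, Fitm2 and Ppara (not red) lie far to the right of them.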

How the data were processed

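RNA-seq was done on eWAT of 3 CONT and 3 CAC mice, grouped by the deposited sample labels. Per the submitters' processing notes, the authors aligned reads with HISAT2 2.0.5 and counted them per gene with featureCounts 1.5.0-p3. The strand setting is not given in the sources used here. The deposited counts are raw whole reads per gene. The FPKM values that the authors deposited are scaled by gene length and library size, with a size per library that is not the sum of the counts. Levels and marker sums in CPM and the fold changes were taken from counts. The order of levels, the sums over a reaction step, the shares and the ratios were taken from FPKM.

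Counts were tested in R 4.3.3 with edgeR 4.0.16 (quasi-likelihood test with robust estimation, TMM normalization, filterByExpr, Benjamini-Hochberg adjustment over all 17296 tested genes, threshold 0.05) with condition as the only term. CPM values use the TMM-adjusted library sizes. Alternatives were DESeq2 1.42.0, limma 3.58.1 (voom with sample quality weights, and log2(FPKM + 1) or log2(FPKM + 0.1) over genes of at least 0.5 FPKM in 3 libraries), other normalizations and filters, a replicate block and each library left out. The main edgeR fit, DESeq2 and voom were tested on simulated data, and the other alternatives were not. Ratios were compared by exact permutation tests. The common dispersion between libraries was 0.265, far above counting error at these depths. No pair of libraries of the same group agreed within sampling noise.

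All 10 genes are named, with every gene of the glycerol-3-phosphate and acyltransferase lists, the 5 smallest p-values of each other list and the 3 genes nearest to Lpin1 and to Gpam. Lep, Adam7, Ucp1, Dcn and Pdgfra were named after their values were seen. The genes and lists were chosen with earlier results of these data known.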

Additional observations from a re-analysis of the deposited data

How the results depend on the processing

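Each of the 10 genes was refitted under 24 alternatives, 18 of them planned, which gave 240 values. Of these, 224 kept their direction and their side of the adjusted threshold, 15 passed it only in the alternative, 0 lost a call and 1 changed sign, Gpat3 at -0.0087 by DESeq2 without CAC replicate 1. As the main fit called 0 genes, no call could be lost. The tally does not measure how far the values moved, and Mogat1 ran from -2.44 to -0.28 by edgeR with a library left out. Where edgeR called 0 of all genes, DESeq2 called 965, voom 247, limma on log2(FPKM + 1) 5 and on log2(FPKM + 0.1) 6. For the 10 genes, DESeq2 and voom each called 1, and for the 54 pathway genes 4 and 3. At an unadjusted p under 0.05, voom counted 8 of the 10 genes (25% of all genes) beside 4 by edgeR (13.3%), and edgeR with each library left out counted 1 (without CAC replicate 3) to 4. For these edgeR fits the share of all genes was taken only without CONT replicate 1, at 15.6%. DESeq2 with each library left out was chosen after seeing the data. It called 2102, 623 and 888 genes without CONT replicate 1, 2 or 3 and 1506, 696 and 615 without CAC replicate 1, 2 or 3. Among these were 2 to 10 pathway genes and 1 to 4 of the 10 genes. Of the 10 it called Dgat1, Gpam, Lpin1 and Lpin2 without CONT replicate 1, and Dgat2, Lpin1, Lpin3 and Mogat1 without CAC replicate 1. Without CONT replicate 3 it called Gpam and Lpin1, and in the other fits Lpin1 alone. At an unadjusted p under 0.05 it counted 2 to 6 of the 10. The share of all genes at that p was not taken for these fits, so this count cannot be weighed. The median over all genes then lay at 0.16 without CONT replicate 2 and -0.25 without CAC replicate 3. The cause of these differences was not tested.

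Only 1 of 3 same-numbered pairs of libraries deviated together (r = 0.306, -0.151 and -0.218 over genes), so the numbers were not taken as pairs. With the replicate number as a block, edgeR called 1 gene in all and 0 of the 10, with Lpin1 at 2.06 (adjusted p = 0.284).

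The limits are 3 libraries per group, 1 control with a high mitochondrial share, epididymis markers at 9523 CPM in CONT replicate 3 and 202 CPM in CONT replicate 1, and 1 CAC library that stands apart for Dgat2 and Mogat1. Depth does not limit the members, whose lowest count was 111 reads.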
